A study of Mus musculus with 34 samples.

Results

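The wild-type hippocampus after daily oral dosing with tofacitinib was compared with the wild-type hippocampus after vehicle alone, in 10 of the 34 mouse libraries of the series. The members are the libraries labelled wild-type, 5 given vehicle (called sham) and 5 given tofacitinib, and the other 24 libraries carry 3 other genotypes. All 10 animals were C57BL/6J mice without a mutation or transgene named in the labels, aged 6 months, and each group held 2 females (replicates 1 and 2) and 3 males (replicates 3 to 5). Treated animals received 15 mg/kg tofacitinib by gavage each day for a month, and sham animals received 0.5% methylcellulose on the same schedule. Gene expression was measured by poly(A) RNA sequencing of hippocampal tissue, with 16.4 to 21.1 M counts in the sham libraries and 14.9 to 19.3 M in the tofacitinib libraries. The other genotypes are Dp16 (an extra copy of part of mouse chromosome 16, a model of Down syndrome), 5xFAD (amyloid-forming human transgenes) and both together, each given sham or tofacitinib. The question asked of these 10 libraries is how a month of the drug alters expression in hippocampus with neither alteration.

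Tofacitinib is a small molecule that competes with ATP in the Janus kinases, with most activity against JAK1 and JAK3. Cytokine receptors have no kinase domain of their own and carry Janus kinases on their intracellular tails; binding of an interferon or interleukin brings these together, and the activated kinases phosphorylate STAT proteins, which enter the nucleus and switch on genes. Among those genes are the interferon-stimulated genes and the SOCS family, whose products feed back on the kinases. In brain these genes are known to be transcribed at a low basal rate by microglia, astrocytes, endothelial cells and neurons, and to rise many-fold with interferon. The drug acts on kinase activity, so transcript levels of the kinases themselves are not a direct readout of inhibition.

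With the filter on low counts, no gene passed the threshold in either direction. Of 17518 genes tested with edgeR's quasi-likelihood test, 0 (0%) had a Benjamini-Hochberg adjusted p under 0.05, and the smallest adjusted p was 1. At an unadjusted p under 0.05 there were 491 genes (2.8%), of which 299 were higher (1.71%) and 192 lower (1.1%) with tofacitinib. The smallest unadjusted p was 0.000231. DESeq2, run on the same genes, gave 526 genes at an unadjusted p under 0.05 and 1 gene, Foxb1, past the adjusted threshold with an adjusted p of 0.046. Foxb1, a forkhead transcription factor, was at 0 CPM (reads per M of the TMM-scaled library size) in all 5 sham libraries, at 0.206 CPM in tofacitinib library 3, at 0.3 CPM in tofacitinib library 4 and at 0 CPM in the other tofacitinib libraries. That call rests on a few reads in 2 libraries. Without the filter, edgeR's test called 46 genes (33 higher, 13 lower), 26 of which had their highest value in tofacitinib library 3, and 30 when that library was also left out. The median standard error of the 46 was 0.591 with the filter and 0.156 without it, and the cause was not tested.

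Sham and tofacitinib libraries did not overlap in 91 genes (0.519%), with all tofacitinib libraries above all sham libraries in 47 (0.268%) and below in 44 (0.251%). Over all genes the median log2 fold change was 0.01, with quartiles of -0.09 and 0.13. The precision was a median standard error of 0.17 and a median 95% interval of 0.35 to either side on the log2 scale. The 95% interval lay within a 2-fold change in both directions for 13089 genes (74.7%), and for 90.5% of the 14352 genes with a mean of at least 1 CPM in these libraries. It lay within a 1.5-fold change for 71.4% of the genes at 1 CPM or more. Leaving out 1 library at a time gave 0 calls each time, and 353 to 796 genes at an unadjusted p under 0.05, with the counts furthest from 491 being 753 without sham library 3 and 796 without tofacitinib library 5.

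**Figure D1:**
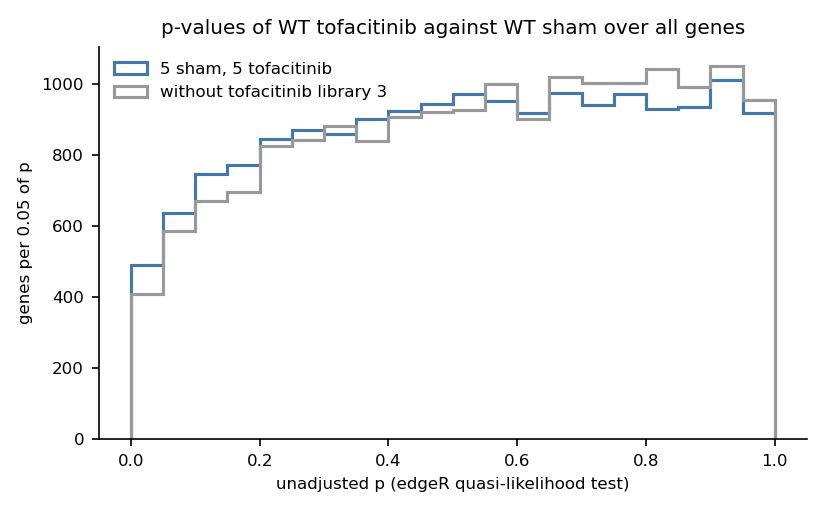
Number of genes (y axis) by unadjusted edgeR p in bins of 0.05 (x axis) for WT tofacitinib against WT sham, with all 10 wild-type libraries (blue) and without tofacitinib library 3 (grey). The lowest bin holds 491 genes with all libraries and 409 without library 3, fewer than any other bin.

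Tofacitinib library 3, from a male, stood apart from the other 9 in markers of where in the brain the tissue lay. Fold changes of tofacitinib against sham, medians of gene lists and counts of calls were also computed without it. Tallies of intervals, and differences of single genes from the other genotypes, are given only with library 3 included. The level of a gene list in a library is given as the mean of its members' log2 CPM. The 12 dentate gyrus granule cell genes averaged 3.15 in that library, against 4.92 to 5.2 in the other tofacitinib libraries and 5.05 to 5.36 in the sham libraries. The 11 CA1 pyramidal cell genes averaged 3.81 there, against 5.58 to 5.86 in the other tofacitinib libraries. The 15 CA3 and CA2 genes averaged 3.94 there, against 4.36 to 4.76 in the other tofacitinib libraries. Their summed level in library 3 was not low, at 948 CPM against 831 to 877 CPM in the sham libraries. Neocortex genes averaged 5.53 against 4.04 to 4.25, and genes of the striatum, a neighbouring forebrain region, averaged 5.49 against 2.72 to 3.31. All 12 dentate and all 15 striatal genes tested were detected, and the summed striatal level was 1700 CPM in library 3 against 386 to 439 CPM in the other 4 tofacitinib libraries and 372 to 433 CPM in the sham libraries. In the 9 other wild-type libraries the levels of the hippocampal lists overlapped between groups. Library 3 matched the labelled tissue less in its dentate and CA1 genes. Without it, 2 of 12 dentate genes lay above 0. Summed dentate levels of 542 and 536 CPM in tofacitinib libraries 4 and 5 lay below the sham range of 591 to 709 CPM. Those of libraries 1 and 2 (642 and 678 CPM) lay within it. In summed CA1 level tofacitinib library 4 alone of the rest lay below sham, at 793 CPM against 907 to 1080 CPM. Lists of neighbouring regions also differed among the 9 other libraries. Neocortex genes averaged 4.02 to 4.69 in the sham libraries, and without library 3 their median log2 fold change was -0.2, with 0 of 13 above 0. Thalamus and habenula genes averaged 3.11 in tofacitinib library 4 and 2.47 to 2.79 in the sham libraries.

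Single marker genes showed the same. Penk, the enkephalin precursor made by striatal projection neurons, was at 339 CPM in library 3 and at 31.1 to 45.3 CPM in the other 9 wild-type libraries. Adora2a, an adenosine receptor of the same neurons, was at 48.2 CPM there and at 1.64 to 3.26 CPM elsewhere. Its log2 fold change of 2.44 with all libraries became 0.04 without library 3. Prox1, the transcription factor that defines dentate granule cells, was at 16 CPM in library 3 and at 63.9 to 103 CPM in the other tofacitinib libraries. Gpr161, listed here for CA1, was at 5.07 CPM there against 40.5 to 55.4 CPM. An unadjusted edgeR p under 0.05 was found for 5 of the 15 striatal genes, beside 2.8% of all genes, all 15 lay above 0, and their median log2 fold change was 0.91 with library 3 and 0.04 without it. In bulk tissue fewer cells of a type and less RNA per cell cannot be told apart.

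**Figure D2:**
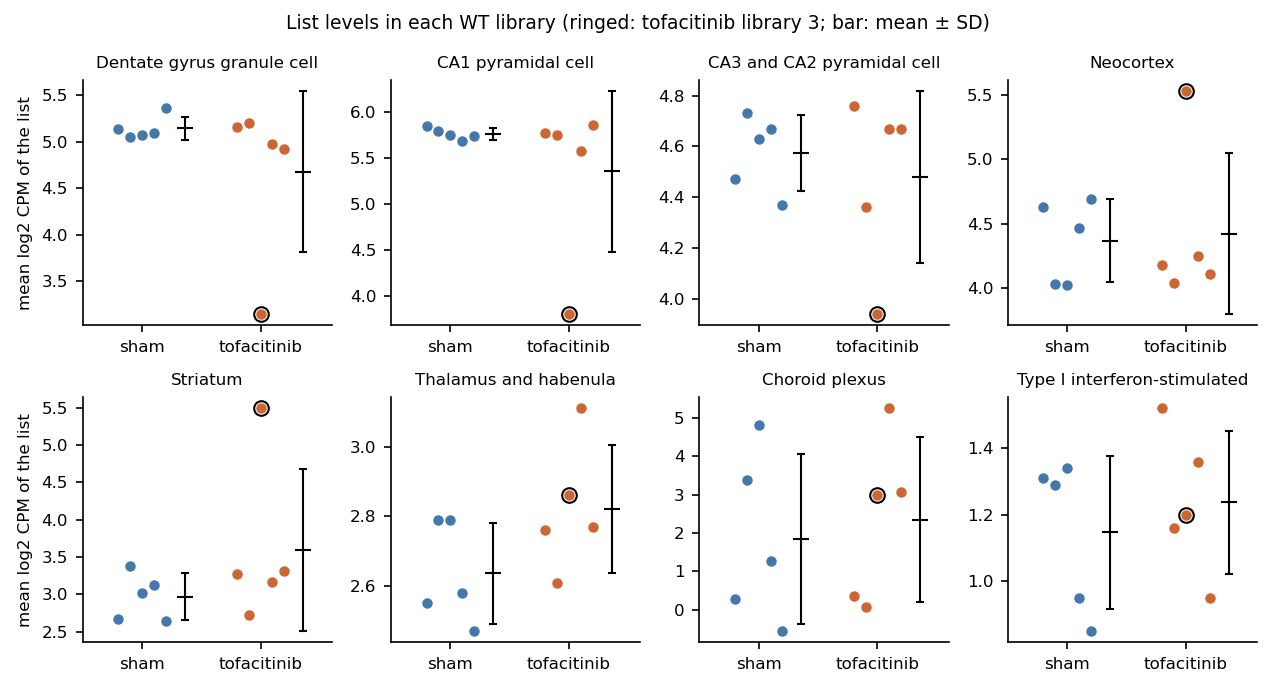
Level of 8 gene lists (y axis, mean log2 CPM of the list) in each wild-type library, sham in blue and tofacitinib in orange, with mean ± SD as bars and tofacitinib library 3 ringed. Library 3 lies at 3.15 in the dentate gyrus list and at 5.49 in the striatum list, away from the other libraries, while the choroid plexus list runs from -0.56 to 5.25 over both groups.

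Without library 3 the comparison again gave 0 calls, with 17477 genes tested, 409 of them (2.34%) at an unadjusted p under 0.05. The 5 sham and 4 remaining tofacitinib libraries did not overlap in 202 genes (1.16%). Sham library 5 stood apart in another way, with 24880 CPM of Gm42418, a transcript that overlaps ribosomal RNA sequence, against 2215 to 9709 CPM in the other 9 wild-type libraries. Without it the comparison gave 0 calls and 377 genes at an unadjusted p under 0.05. Gm42418 was among the 13 genes that edgeR called lower without the filter (log2 fold change -0.8). The part of sham library 5 in those calls was not tested.

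The 4 Janus kinases differed widely in level in this tissue, and 0 of them passed the threshold between groups. Per gene length, Jak1 (chromosome 4, 101152367 to 101265282, minus strand, GRCm38) stood highest at 33.6 ± 3.33 RPKM (SD, n = 5 sham), a read count scaled to gene length and library size. Jak2 stood at 6.2 ± 0.533 RPKM, Tyk2 at 1.5 ± 0.268 RPKM and Jak3 at 1.12 ± 0.213 RPKM in the same libraries. The sham ranges of the lowest 2 of these overlapped, 1.18 to 1.75 RPKM for Tyk2 and 0.897 to 1.34 RPKM for Jak3.

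Jak1, which serves interferon and gp130 receptors, was at 174, 174, 135, 164 and 179 CPM in sham libraries 1 to 5 and at 190, 152, 153, 136 and 162 CPM in tofacitinib libraries 1 to 5. The groups overlapped throughout, and the log2 fold change was -0.06 with a 95% interval of -0.26 to 0.15. Jak3, the partner of the common gamma chain in lymphoid cells, was at 4.18, 5.9, 3.96, 5.91 and 5.19 CPM with sham and at 2.79, 3.7, 4.53, 3.65 and 5.03 CPM with tofacitinib. Its 3 lowest values were tofacitinib libraries 1, 4 and 2, and the other 7 values were mixed. The log2 fold change of Jak3 was -0.35 (95% interval -0.73 to 0.03), and -0.41 (-0.81 to -0.001) without library 3, where the interval leaves out 0, with an adjusted edgeR p of 1 in both. Jak2 was at 0.08 (-0.11 to 0.26) and Tyk2 at 0.08 (-0.21 to 0.38) on the log2 scale.

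Transcripts of the STAT proteins, which the kinases phosphorylate, lay near the same level in both groups. Stat3 was the highest of those named at 7.19 ± 0.938 RPKM in sham, followed by Stat5b at 4.21 ± 0.322, Stat2 at 3.79 ± 0.519 and Stat6 at 2.5 ± 0.384 RPKM. The sham ranges of Stat5b and Stat2 overlapped. Stat3, the main carrier of gp130 signals, was at 45.4, 49.3, 50.7, 39.9 and 38.9 CPM with sham and at 43.4, 48.8, 36.6, 39.1 and 46.3 CPM with tofacitinib. These values overlapped. The log2 fold change of Stat3 was -0.07 (95% interval -0.27 to 0.14) and that of Stat2 was -0.07 (-0.34 to 0.2). Stat2, part of the factor activated by type I interferon, was at 22.9 CPM in tofacitinib library 1 and at 13.3 to 15.2 CPM in the other 4. Stat4, known from lymphoid cells, was at 0.0506 ± 0.0791 RPKM in sham and at 0 in 4 of the 10 libraries. The kinase and STAT list also holds Irf9. Of its 12 genes tested, 0 passed the threshold, 0 had an unadjusted p under 0.05, and 8 lay above 0. Their median log2 fold change was 0.05, beside 0.01 over all genes. It was -0.03 without library 3, where Stat4 was not tested.

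Several receptors that signal through the kinases stood above Tyk2 and Jak3 per gene length, and 0 of them passed the threshold between groups. Ifngr2, a chain of the interferon-gamma receptor, was at 19.8 ± 1.48 RPKM in sham, the shared interleukin-6 family chain Il6st (gp130) at 9.64 ± 1.08, the type I interferon receptor chains Ifnar1 at 8.73 ± 0.791 and Ifnar2 at 5.33 ± 0.946, and Ifngr1 at 8.15 ± 0.826 RPKM. The sham ranges of Il6st, Ifnar1 and Ifngr1 overlapped in part. Ifnar1 was at 39.7, 32.3, 34.2, 32.8 and 31.9 CPM with sham and at 34.7, 39.8, 38.3, 30.3 and 42.4 CPM with tofacitinib. These values interleave, and the log2 fold change was 0.12 (95% interval -0.04 to 0.28). Ifngr2 was at 44.6 CPM in tofacitinib library 3 and at 67.5 to 80.2 CPM in the other 9 libraries, and its log2 fold change of -0.13 became -0.01 without that library. Il2rg, the common gamma chain that pairs with Jak3, was at 0.25 to 0.955 CPM with sham and at 0.274 to 0.91 CPM with tofacitinib. Of 32 receptor genes tested, 0 passed the threshold, 0 had an unadjusted p under 0.05 and 17 lay above 0, with a median of 0.01 with or without library 3.

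The receptor transcript Prlr varied widely between libraries of both groups. Prlr, the prolactin receptor, known to be abundant in choroid plexus, was at 3.02, 12.4, 24.5, 3.78 and 1.44 CPM with sham and at 3.82, 3.94, 9.19, 33.2 and 10.8 CPM with tofacitinib. The summed level of the 16 choroid plexus genes, all of them detected, ran from 32.7 to 4040 CPM with sham and from 38.2 to 5830 CPM with tofacitinib, and it was highest in sham library 3 and tofacitinib library 4, as was Prlr. The part of this tissue in the Prlr values was not tested, and the standard error of the Prlr log2 fold change (0.51) was 1.2.

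Ligands were scarce. Of 28 ligand genes listed, 12 passed the filter on low counts, and 7 (Il4, Il12b, Il10, Csf2, Epo, Csf3 and Ifnb1) were at 0 counts in all 10 wild-type libraries, which allows up to 0.144 to 0.206 CPM in a library by counting error alone (3 counts). Il34, which binds the microglial receptor CSF1R rather than a Janus kinase receptor and was on the list all the same, was at 29.3 to 38.2 CPM with sham and at 28.9 to 40 CPM with tofacitinib. Il15, which signals through the common gamma chain, was at 0.816, 1.35, 1.27, 0.657 and 1.25 CPM with sham and at 0.607, 0.801, 0.274, 0.651 and 0.686 CPM with tofacitinib. Tofacitinib libraries 1, 3 and 4 lay below every sham library. The log2 fold change of Il15 was -0.81 (95% interval -1.67 to 0.05), and -0.64 without library 3. Gh, the growth hormone gene, was at 14.2 CPM in sham library 2 and at 15.7 CPM in tofacitinib library 2. Prl, the prolactin gene, was at 15.5 and 22.2 CPM in the same libraries. Both genes were at 0 CPM in sham library 5 and tofacitinib library 5. The standard errors of their log2 fold changes (0.64 and 0.22) were 1.23 and 1.24. Among the 12 ligand genes tested 0 passed the threshold, and the median was 0.16 (0.19 without library 3).

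Feedback inhibitors and direct targets of STAT proteins are the transcripts usually read as a measure of JAK-STAT activity. The promoters of 2 of them, Cish and Socs3, and of 2 interferon-stimulated genes, Isg15 and Ifit1, are shown because they hold letters that match the motifs of the pathway's transcription factors. Each runs from 250 bases before to 50 bases after the annotated start (RefSeq, GRCm38.p6), 5′ to 3′ on the gene's strand. Capitals mark every base covered by a match on either strand to the core TTCNNNGAA, bound by STAT dimers and known as GAS, in Cish and Socs3, or, in Isg15 and Ifit1, to the core of the interferon-stimulated response element (ISRE), which is TTTC, any 2 bases and TTTC again.
Cish (chr9:107296409-107296708, plus strand): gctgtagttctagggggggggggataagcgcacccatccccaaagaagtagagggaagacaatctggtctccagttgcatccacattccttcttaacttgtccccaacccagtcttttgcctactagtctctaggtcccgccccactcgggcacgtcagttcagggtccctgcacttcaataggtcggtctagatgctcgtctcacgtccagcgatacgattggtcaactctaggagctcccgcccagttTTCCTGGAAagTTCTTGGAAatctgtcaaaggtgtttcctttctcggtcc
Socs3 (chr11:117969317-117969616, minus strand): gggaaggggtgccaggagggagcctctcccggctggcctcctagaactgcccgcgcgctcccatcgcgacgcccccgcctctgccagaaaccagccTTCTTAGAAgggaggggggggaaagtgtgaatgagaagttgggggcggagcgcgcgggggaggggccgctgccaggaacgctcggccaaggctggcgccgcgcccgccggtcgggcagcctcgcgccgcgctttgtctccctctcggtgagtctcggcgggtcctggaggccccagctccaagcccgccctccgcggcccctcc
Isg15 (chr4:156200769-156201068, minus strand): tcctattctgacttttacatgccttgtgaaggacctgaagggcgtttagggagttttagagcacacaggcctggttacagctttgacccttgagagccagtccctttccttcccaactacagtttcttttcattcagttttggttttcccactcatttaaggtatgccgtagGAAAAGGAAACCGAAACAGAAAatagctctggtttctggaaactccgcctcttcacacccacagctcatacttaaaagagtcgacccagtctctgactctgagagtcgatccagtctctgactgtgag
Ifit1 (chr19:34640639-34640938, plus strand): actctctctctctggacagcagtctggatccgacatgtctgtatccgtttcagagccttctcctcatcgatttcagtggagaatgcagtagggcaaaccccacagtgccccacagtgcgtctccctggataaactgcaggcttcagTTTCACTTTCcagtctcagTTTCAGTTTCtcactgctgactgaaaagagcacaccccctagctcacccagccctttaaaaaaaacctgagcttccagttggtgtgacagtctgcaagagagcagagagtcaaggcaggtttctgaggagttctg

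Cish holds 2 GAS matches at its start and Socs3 holds 1, while Isg15 holds 3 overlapping ISRE matches and Ifit1 holds 2. Of 32851 promoters of 300 bases in the table, 3.44% hold the ISRE letters and 8.3% the GAS letters. Among 87 promoters of the 2 interferon lists described here the shares were 42.5% and 19.5%. Of the 17518 genes tested, 12646 (72.2%) matched a promoter by symbol. The 456 of these with an ISRE match had a median log2 fold change of 0.04, with 11 (2.41%) at an unadjusted p under 0.05, and the 1012 with a GAS match had a median of 0.01, with 27 (2.67%), beside 0.01 and 2.74% for all 12646. None of these genes passed the adjusted threshold in edgeR's test. A match of letters is a description and not a measured binding site.

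Cish, an inhibitor induced by STAT5, was at 4.85, 5.17, 3.3, 5.25 and 4.5 CPM with sham and at 5.34, 4.81, 9.33, 5.66 and 4.06 CPM with tofacitinib. Tofacitinib libraries 1, 3 and 4 lay above the sham range, library 3 by the most. The log2 fold change was 0.37 (95% interval -0.32 to 1.05) and became 0.07 without library 3. Socs3, the STAT3-induced inhibitor of gp130 signalling, was at 2.06, 0.899, 1.54, 1.48 and 1.06 CPM with sham and at 1.15, 0.616, 4.39, 0.851 and 2.17 CPM with tofacitinib. Its highest and its 2 lowest values were all tofacitinib libraries, and the log2 fold change of 0.35 (-0.52 to 1.22) turned to -0.24 without library 3. Pim1, a STAT-induced kinase, was at 0.22 (-0.46 to 0.91) and at -0.03 without it.

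Socs1 and Usp18, which act on interferon receptors, had positive fold changes with wide intervals. Socs1 was at 0.328 to 0.787 CPM with sham and at 0.501 to 1.76 CPM with tofacitinib, a log2 fold change of 0.86 (95% interval -0.34 to 2.05). Usp18 was at 0.624, 1.01, 1.21, 0.876 and 0.438 CPM with sham and at 2.97, 0.74, 0.617, 1.45 and 1.03 CPM with tofacitinib. Tofacitinib library 1 held the highest value, and the log2 fold change of Usp18 was 0.66 (-0.23 to 1.55). Socs4 was the 1 gene of all 178 tested in the 7 JAK-STAT and interferon lists (0.562%, beside 0.519% of all genes) whose groups did not overlap, at 14.5 to 16 CPM with sham and 16.4 to 18.2 CPM with tofacitinib. Its log2 fold change was 0.16 (95% interval -0.03 to 0.35). Of the 26 feedback and target genes 0 passed the threshold, 0 had an unadjusted p under 0.05 and 13 lay above 0, with a median of 0 that was -0.04 without library 3.

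**Figure D3:**
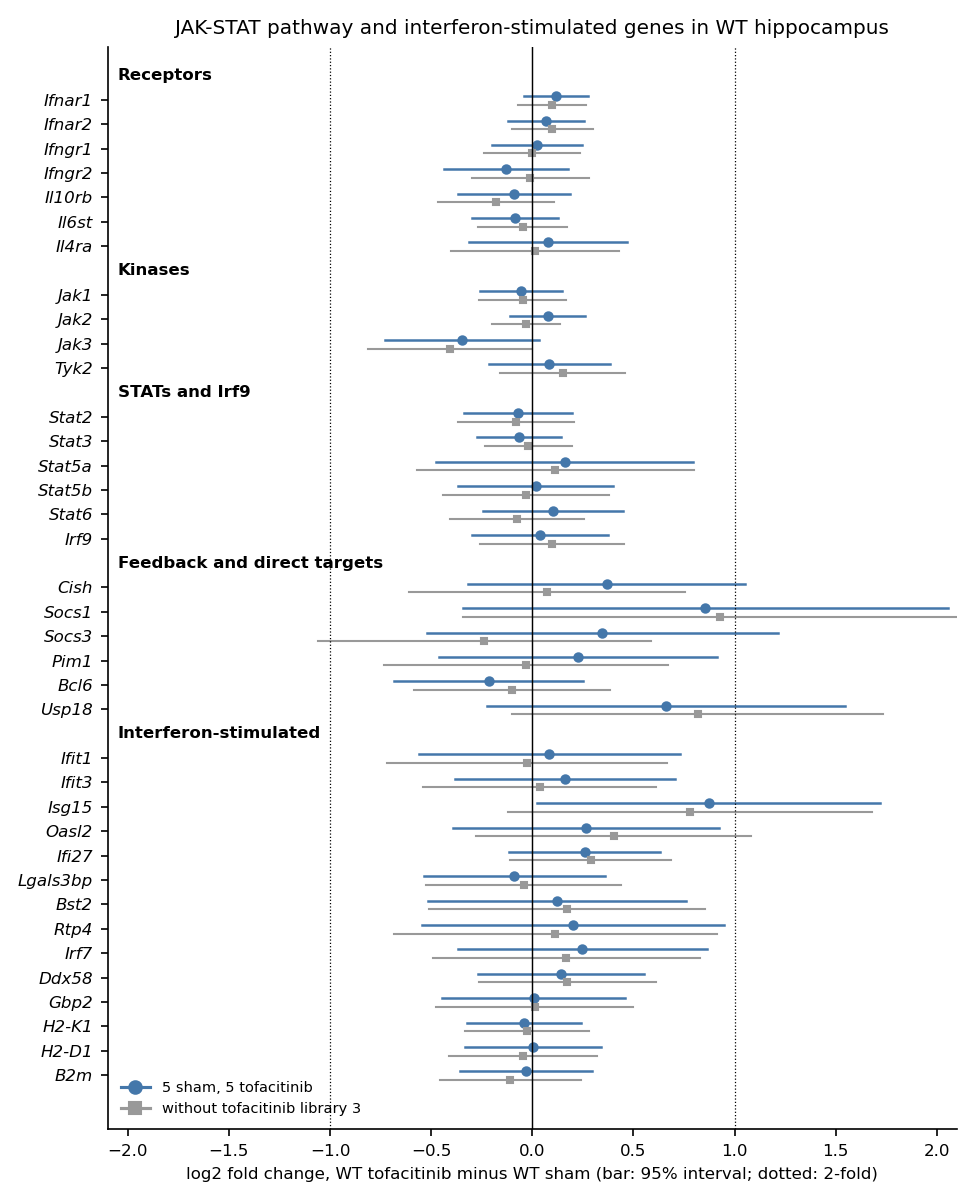
Log2 fold change (x axis, points) with 95% interval (bars) for named receptors, kinases, STATs, feedback genes and interferon-stimulated genes, all 10 wild-type libraries in blue and without tofacitinib library 3 in grey, with dotted lines at a 2-fold change. The interval of Isg15, from 0.02 to 1.72, lies above 0 with all libraries, and those of Socs1 and Usp18 are among the widest.

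Interferon-stimulated genes were expressed at low levels in both groups, and none passed the threshold. Over 55 type I interferon-stimulated genes tested, the list level was 1.31, 1.29, 1.34, 0.95 and 0.85 mean log2 CPM in the sham libraries and 1.52, 1.16, 1.2, 1.36 and 0.95 in the tofacitinib libraries. The groups overlapped, at 1.15 ± 0.23 and 1.24 ± 0.21 (SD, n = 5 each), and libraries of the other 3 genotypes lay between 1.29 and 2.78. In all, 38 of the 55 lay above 0 with a median log2 fold change of 0.12, and 29 lay above 0 with a median of 0.02 without library 3. The 95% interval left out a fall to 50% or below for 46 of the 55, and a 1.5-fold fall for 38 of them. The list level of homeostatic microglia was 4.7 ± 0.08 with sham and 4.68 ± 0.06 with tofacitinib.

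Isg15, a ubiquitin-like protein induced by interferon, was at 1.63, 0.899, 0.99, 0.93 and 0.688 CPM with sham and at 2.31, 0.74, 2.33, 2.1 and 1.94 CPM with tofacitinib. Tofacitinib libraries 1, 3, 4 and 5 lay above every sham library, and library 2 lay below all sham libraries except the lowest. It was the 1 gene among the 178 with an unadjusted edgeR p under 0.05 (adjusted p = 1), a share of 0.562% beside 2.8% of all genes, and the log2 fold change was 0.87 (95% interval 0.02 to 1.72). Without library 3 its log2 fold change was 0.78 and its unadjusted p was no longer under 0.05, while those of Jak3, Il12rb2, Ifi27l2a, Ifi204 and H2-T23 were (5 of the genes, of which 3 lay above 0, beside 2.34% of all genes in that fit; adjusted p = 1). Ifi27l2a was at 0.048 to 0.674 CPM with sham and at 0.0686 to 1.94 CPM with tofacitinib, and its log2 fold change went from 1.42 to 1.71 without library 3. Ifit1, an RNA-binding antiviral protein, was at 2.3, 2.87, 2.75, 1.59 and 1.75 CPM with sham and at 4.55, 0.986, 2.88, 2.3 and 1.26 CPM with tofacitinib. The tofacitinib values lay on both sides of the sham range, and the log2 fold change was 0.09 (95% interval -0.56 to 0.73).

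Ifi27 and Lgals3bp were better expressed than Isg15 and Ifit1 and had tighter intervals. Ifi27 was at 20.9 ± 5.42 CPM with sham and 25 ± 5 CPM with tofacitinib, a log2 fold change of 0.26 (-0.11 to 0.63). Lgals3bp, a secreted glycoprotein, was at 19.1 ± 6.19 and 18 ± 2.79 CPM, a log2 fold change of -0.09 (-0.54 to 0.36). Irf7, the factor that amplifies the interferon response, was at 2.39 ± 0.494 and 2.8 ± 0.945 CPM, at 0.25 (-0.37 to 0.87). Paralogs on this list, such as the Ifit, Oas and Ifi200-family genes, may share reads, since the labels do not say how reads with several matches were counted.

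Among genes that respond to interferon-gamma, with the MHC class I pathway, 0 passed the threshold. H2-K1, a classical class I heavy chain, was at 34.1, 37, 32.2, 25.6 and 24 CPM with sham and at 26.6, 37.4, 27.4, 28.9 and 28 CPM with tofacitinib. The values overlapped, and the log2 fold change was -0.04 (95% interval -0.32 to 0.24). B2m, its light chain, was at -0.03 (-0.36 to 0.3), H2-D1 at 0 (-0.34 to 0.34) and the guanylate-binding protein Gbp2 at 0.01 (-0.45 to 0.46). Scarcer members spread further: the chemokine Cxcl10 was at 0 to 0.385 CPM with sham and at 0 to 1.64 CPM with tofacitinib (log2 fold change 1, -0.81 to 2.82), and Gbp6 was at -0.62 (-1.92 to 0.68). Of the 38 genes of this list 0 had an unadjusted p under 0.05, 22 lay above 0, and the median was 0.03 (0.02 without library 3). The interval left out a fall to 50% or below for 33 of them. The 8 MHC class II genes, at 18.1 to 39.7 CPM summed over the list in the tofacitinib and 19.7 to 31.3 CPM in the sham libraries, had a median of 0.19 and an interval within a 2-fold change for 2 genes.

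Over the 178 genes of the 7 lists together, 110 lay above 0, the median log2 fold change was 0.05 (0.01 without library 3) and the interval lay within a 2-fold change for 116 (65.2%, beside 74.7% of all genes). The difference between the wild-type drug response and the mean response of the other 3 genotypes was tested in the same fit. It passed the threshold for 0 of 17518 genes, with 318 (1.82%) at an unadjusted edgeR p under 0.05 and 7 of the 178 among them. For Isg15 this difference was 1.1 ± 0.49 (SE, adjusted p = 1 in edgeR's test), from log2 fold changes of 0.87 in wild type, -0.01 in Dp16, -0.2 in 5xFAD and -0.49 in the animals with both. For Jak1 it was 0 ± 0.12. In the wild-type libraries alone, the difference of the drug response between males and females passed the threshold for 0 of 15327 genes (0%), with 427 (2.79%) at an unadjusted p under 0.05 in edgeR's test and 417 and 0 adjusted in DESeq2.

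The genes with the smallest p at a mean of 1 CPM or more were of varied function, and none was on the JAK-STAT and interferon lists. Mybph (chromosome 1, 134193448 to 134201232, plus strand), a myosin-binding protein, was at 1.15, 1.85, 1.21, 0.547 and 0.563 CPM with sham and at 2.06, 2.71, 3.36, 2.45 and 2.34 CPM with tofacitinib. All tofacitinib libraries lay above all sham libraries. The log2 fold change was 1.26 ± 0.32 (SE) with an adjusted edgeR p of 1, and it was 1.16 without library 3. Against the other genotypes' mean response Mybph differed by 1.27 ± 0.38 (SE, adjusted p = 1 in edgeR's test).

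Med11, a subunit of the Mediator complex that links transcription factors to RNA polymerase II, was at 5.67, 6.63, 9.68, 6.62 and 8.07 CPM with sham and at 9.35, 10.2, 10.8, 14.4 and 9.21 CPM with tofacitinib. Sham library 3 overlapped the tofacitinib range. Its log2 fold change was 0.56 ± 0.15 (SE) and 0.57 without library 3. Igdcc3, an immunoglobulin-superfamily membrane protein, was at 2.74, 2.42, 3.14, 1.97 and 1.94 CPM with sham and at 1.21, 1.29, 0.823, 0.951 and 1.49 CPM with tofacitinib. All tofacitinib libraries lay below all sham libraries, with a log2 fold change of -1.08 ± 0.3 (SE). C1qtnf6, a secreted C1q-related protein, was at 1.76 to 3.01 CPM with sham and at 0.891 to 1.65 CPM with tofacitinib, again without overlap, a log2 fold change of -0.84 ± 0.25.

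Vps37c, a subunit of the ESCRT-I complex that sorts membrane proteins to the lysosome, had a small and even difference. It was at 22.8, 23.5, 24.4, 22.9 and 22.6 CPM with sham and at 20.7, 18.2, 20.4, 20.1 and 16.3 CPM with tofacitinib. The groups did not overlap, the log2 fold change was -0.28 ± 0.09 (SE), and it was -0.31 without library 3. Vps37c also had the smallest p of all named genes for the difference from the other genotypes, at -0.45 ± 0.1 (SE, adjusted p = 1 in edgeR's test). Abhd11os, a non-coding transcript on the strand opposite Abhd11, was at 0.375 to 0.899 CPM with sham and at 1.05 to 2 CPM with tofacitinib apart from library 3, where it was at 4.94 CPM. Its log2 fold change was 1.68 ± 0.51 (SE), and 1.15 without library 3. The labels do not say which strand setting the counting used, so reads of Abhd11os and of Abhd11 cannot be told apart.

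**Figure D4:**
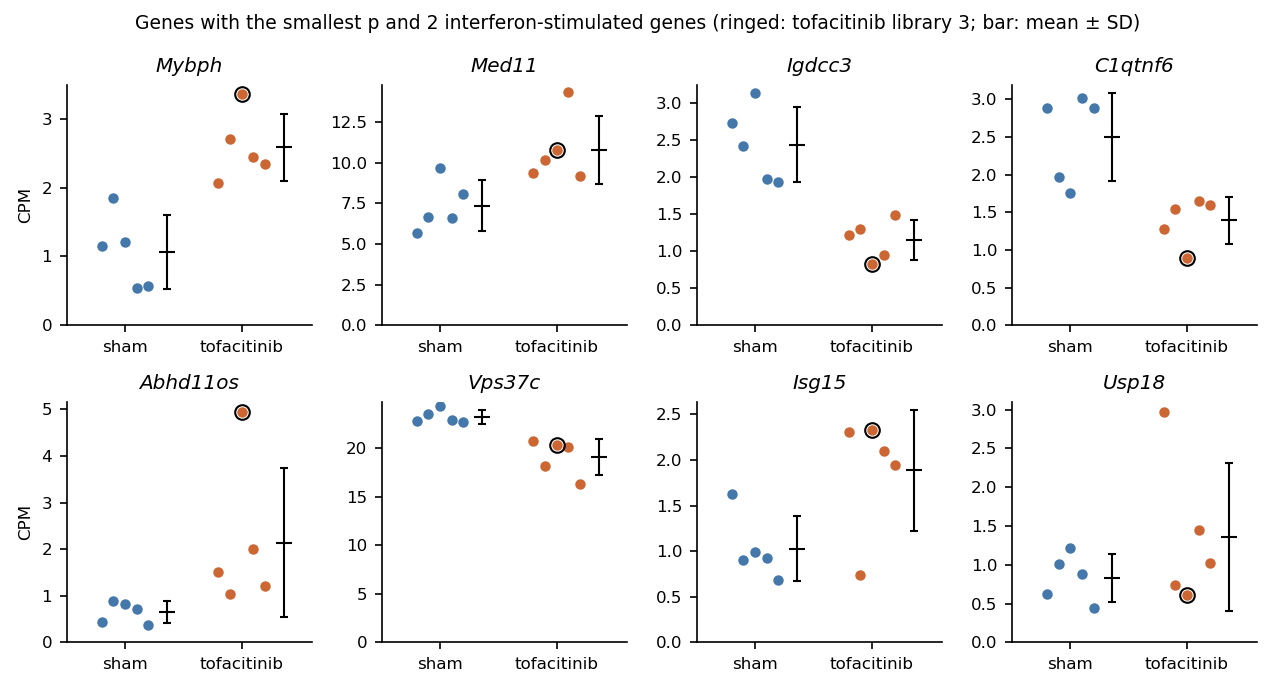
CPM (y axis) in each wild-type library for 6 genes with the smallest p and for Isg15 and Usp18. The 6 were taken among genes with a name of their own and a mean of at least 1 CPM in either group. Sham is in blue and tofacitinib in orange, with mean ± SD as bars and tofacitinib library 3 ringed. In Mybph and Abhd11os all tofacitinib points lie above the sham points, in Igdcc3, C1qtnf6 and Vps37c below, and in Isg15 and Usp18 the groups overlap.

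The 15 genes with the smallest p at 1 CPM or more all had an adjusted edgeR p of 1. The 9 not yet described included Ercc8 (0.53 ± 0.17, SE), which acts in transcription-coupled DNA repair, and Hibch (0.41 ± 0.14), an enzyme of valine breakdown. Tmem199 (0.37 ± 0.12), which helps assemble the vacuolar proton pump, was another. So was Galc (0.26 ± 0.08), the lysosomal enzyme that breaks down the myelin lipid galactosylceramide. All of these lay above 0. Kbtbd7, an adaptor of cullin ubiquitin ligases, lay below, at -0.29 ± 0.1 (SE). Nat8f1 (0.49 ± 0.16, SE) belongs to a family of near-identical acetyltransferase genes whose reads may be shared. Parp10, a mono-ADP-ribosyltransferase, was among the 5 smallest p at 1 CPM or more for the difference from the other genotypes (1.27 ± 0.34, SE, adjusted p = 1 in edgeR's test). It was at 0.821 to 1.3 CPM with sham and at 1.76, 0.986, 1.92, 1.75 and 1.83 CPM with tofacitinib, and its log2 fold change of 0.76 in wild type stood beside 0.21 in Dp16, -0.96 in 5xFAD and -0.79 in the animals with both.

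Without library 3, 6 of the 15 genes with the smallest p at 1 CPM or more were among those with all libraries. They were Mybph, Igdcc3, Vps37c, Med11, Ercc8 and Tmem199. Exph5, a Rab27 effector, moved most among the rest. It was at 3.96 to 9.95 CPM with sham, at 19.3 CPM in library 3 and at 2.53 to 5.1 CPM in the other tofacitinib libraries, and its log2 fold change went from 0.06 to -0.82. Hells, a chromatin remodeller of dividing cells, was at 0.82 ± 0.28 (SE) with all libraries and 0.93 without library 3, and the glutathione transferase Gstm6 at 0.44 ± 0.18 and 0.55.

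Of the markers of the glial, vascular and neuronal cell types in the lists, 0 genes passed the threshold. The median log2 fold change was -0.04 over 16 homeostatic microglia genes, 0.05 over 15 astrocyte genes, 0.07 over 17 oligodendrocyte genes, -0.04 over 12 oligodendrocyte precursor genes and 0.05 over 16 endothelial genes. Other lists lay further from 0, where 9065 of all 17518 genes lay above it. Of the choroid plexus genes 15 of 16 lay above 0, with a median of 0.49 (0.54 without library 3). So did 11 of 12 ependymal genes, with 0.32 (0.51), and 7 of 9 perivascular macrophage genes, with 0.27 (0.39). The levels of these lists overlapped between groups. With sham and tofacitinib they were 1.84 ± 2.22 and 2.35 ± 2.15 for choroid plexus (SD, n = 5 each). They were 0.73 ± 0.88 and 0.97 ± 0.96 for ependymal genes, and 0.41 ± 0.18 and 0.43 ± 0.55 for perivascular macrophage genes. Below 0 lay 11 of 12 dentate granule cell genes, with a median of -0.19 (-0.07 without library 3), and 10 of 11 CA1 genes, with -0.19 (0 without it). P2ry12, the purinergic receptor of resting microglia, was at 42.2 to 52.1 CPM with sham and at 39.3 to 54.7 CPM with tofacitinib. Its log2 fold change was -0.06 (95% interval -0.41 to 0.28). The genes that microglia raise around plaques had a median of 0.08 and the complement genes one of 0.06; C1qa, a chain of the complement initiator C1q made by microglia, was at 78.6 ± 5.6 CPM with sham and 81.9 ± 4.36 CPM with tofacitinib.

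Gfap, the astrocyte filament protein that rises in reactive astrocytes, was at 391, 485, 586, 452 and 423 CPM with sham and at 468, 557, 133, 534 and 454 CPM with tofacitinib. Library 3 held the only low value, and the log2 fold change of -0.12 became 0.11 without it. Timp1, a protease inhibitor induced in reactive astrocytes, had the smallest p of any listed gene (adjusted p = 1 in edgeR's test), at 0.048 to 0.328 CPM with sham, at 0.0501 CPM in tofacitinib library 4 and at 0 in the other 4, a matter of few reads. The 26 reactive astrocyte genes had a median of 0.05.

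Markers of blood cells ranged from absent to well above 10 CPM. The 8 erythrocyte genes counted summed to 45.1 to 130 CPM in sham and to 54.5 to 165 CPM in tofacitinib libraries, highest in library 3. The 5 of them tested had a median log2 fold change of 0.17, which was -0.14 without library 3. Of 21 lymphocyte and natural killer genes 8 passed the filter. All 21 summed to 15.5 to 27.2 CPM in sham, 85.6 CPM in tofacitinib library 3 and 18.7 to 21.3 CPM in the other tofacitinib libraries. Ighm, the immunoglobulin mu heavy chain, gave most of that sum, at 55.4 CPM in library 3 and at 11.7 to 21.1 CPM in the other 9. Cd4, a T-cell coreceptor, was at 11.4 CPM in library 3 and at 0.0572 to 0.91 CPM in the other 9, and its log2 fold change went from 2.41 to -0.58 without library 3. The striatal genes were also high in that library, and their part in these values was not tested. Of 13 granulocyte and monocyte genes 5 passed the filter, and Ly6g and Cxcr2, which define granulocytes, were at 0 in all 10 libraries.

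Immediate-early genes, which neurons switch on with activity, held 0 members past the threshold. Of 28 tested, 23 lay below 0 and 5 above, with a median log2 fold change of -0.14, and of -0.21 with 2 above 0 without library 3, beside 0.01 and 0 over all genes. The list level was 5.5, 4.93, 4.58, 4.88 and 5.31 with sham and 4.99, 4.94, 5.02, 4.63 and 4.92 with tofacitinib. Sham libraries 1 and 5 were the highest of the 10 and sham library 3 the lowest. Fos was at 34.1, 13.2, 8.14, 9.91 and 28.4 CPM with sham and at 15.2, 16, 19.2, 8.96 and 17.9 CPM with tofacitinib, a log2 fold change of -0.25 (95% interval -0.89 to 0.39). Npas4, a factor induced by calcium entry in neurons, was at -0.53 ± 0.48 (SE).

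Other lists also held 0 genes past the threshold. Of 13 mitochondrially encoded genes 12 lay above 0, by 0.26 or less, and the list median was 0.19 (0.17 without library 3), with summed levels of 32300 to 43800 CPM in sham and 34800 to 48800 CPM in tofacitinib libraries. The immature neuron gene Dcx was at 7.76 to 12.9 CPM with sham and 6.21 to 10.2 CPM with tofacitinib (log2 fold change -0.35 ± 0.16, SE), while the 19 neurogenesis genes had a median of -0.06. Bag3, a chaperone cofactor, was at 16.6 to 19.2 CPM with sham and 10.8 to 17.4 CPM with tofacitinib (-0.37 ± 0.15, SE), and 17 of 22 heat shock genes lay below 0 with a median of -0.03. The 25 cholesterol synthesis genes had a median of 0.04, the 25 glucocorticoid-responsive genes one of 0.05, the 19 circadian clock genes one of 0, the 34 glutamate receptor and postsynaptic genes one of -0.08 and the 14 GABA-A receptor genes one of -0.02.

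**Figure D5:**
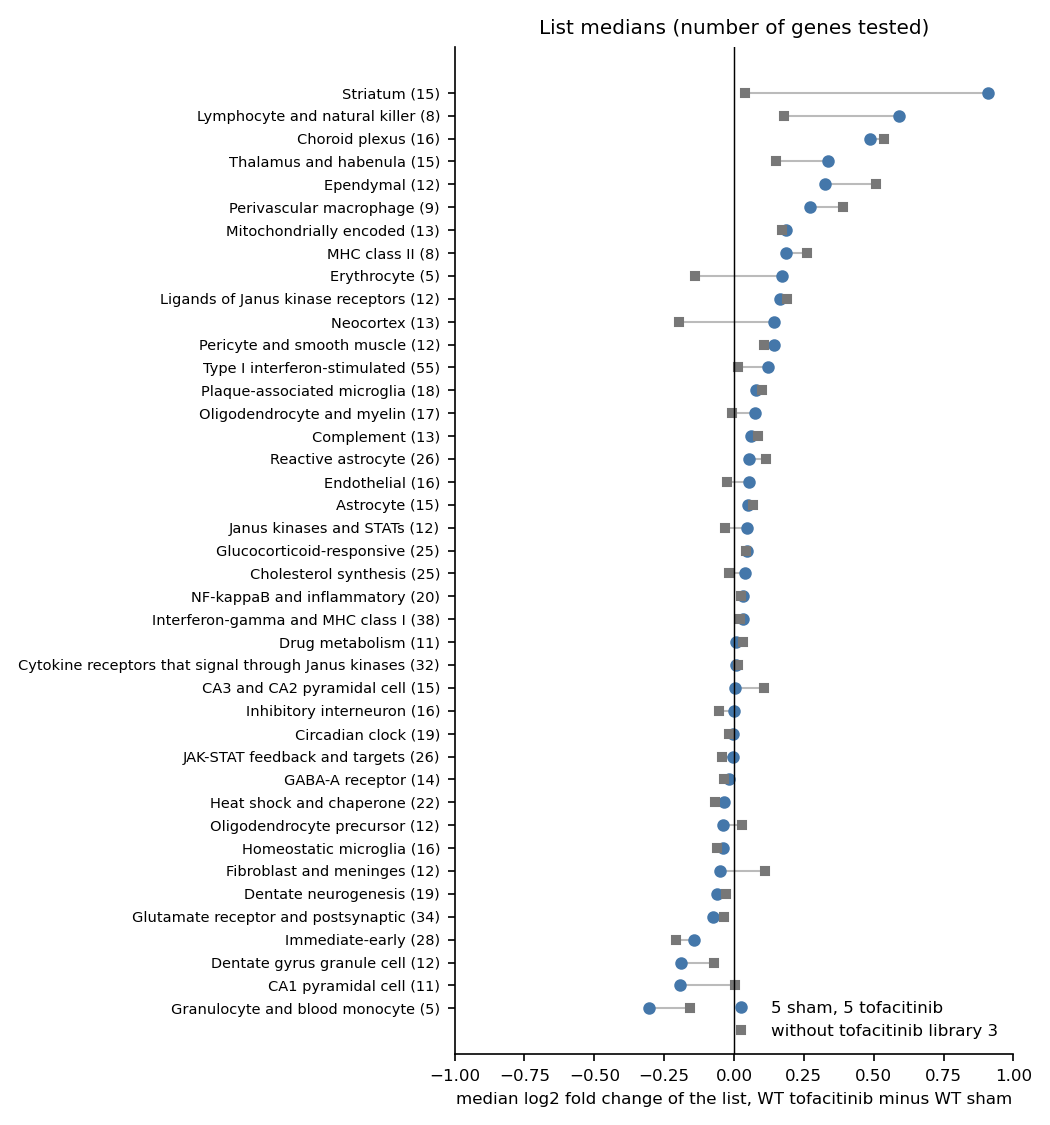
Median log2 fold change (x axis) of each gene list (y axis, with the number of genes tested), all 10 wild-type libraries as blue circles and without tofacitinib library 3 as grey squares. The striatum median moves from 0.91 to 0.04 when library 3 is left out, and most other lists lie between -0.2 and 0.2 either way.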

How the data were processed

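The deposited table of counts holds raw counts, as whole numbers by gene, for 34 libraries, and the authors' second deposited table gave RPKM, which equalled the counts per library total and gene length to a relative deviation of 8.88e-16 and served here only for levels between genes. HISAT2 2.1.0 and HTSeq 0.6.1, with the build GRCm38, are listed in the submitters' processing notes, which give no roles. The file names point to GENCODE vM24, and positions printed here are from GENCODE release 21 of that build, which held 99.6% of the gene identifiers. Replicates are animals numbered in the labels.

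The counts, after TMM scaling, entered edgeR 4.0.16 (R 4.3.3; robust quasi-likelihood F-test, filterByExpr by group) in 1 fit of all libraries with 8 group means and a sex term, leaving 25 residual degrees of freedom. Every test was two-sided, p-values were adjusted by Benjamini-Hochberg across the genes tested, and intervals come from the F statistic. List levels use a prior count of 2. The sex difference was fitted in the wild-type libraries alone. Scripts were tested on simulated data.

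The comparison and the 41 gene lists (787 of 792 entries matched) were chosen with earlier results of these data known. Named genes are the Janus kinases, STATs and a set of their receptors and feedback genes. The 15 smallest p with and without tofacitinib library 3 were added, at a mean of at least 1 CPM. The 5 smallest p for the difference from the other genotypes were added at the same mean. The smallest p of each list (2, or 6 for the 7 JAK-STAT and interferon lists) were added at any level. A further part of the rule, the largest changes past the threshold, found no gene. Some genes that the rule selects are left out of the text. Other genes named, such as Ifit1, Gfap, Fos, Penk and Foxb1, were chosen after their values were seen. Alternatives were DESeq2 size factors, DESeq2 1.42.0, no filter, no sex term, wild-type libraries alone, a replicate block, surrogate variables (2, from sva 3.50.0), leaving out each library, and leaving out the 3 libraries of the series low in hippocampal markers.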

Additional observations from a re-analysis of the deposited data

Results flagged for a closer look

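Outlying libraries were sought in 164 sets of 5 values, from the 41 gene lists and 41 of the 151 genes named by rule, in each group. The other named genes were not screened in this way. In 15 of the 164 sets the highest or lowest library lay further from the rest than Dixon's 95% limit allows. Chance does so in about 1 in 20 groups, and 9 of the 15 were tofacitinib library 3. In that library the dentate gyrus level was 3.15 (others 4.92 to 5.2), the CA1 level 3.81 (5.58 to 5.86), the neocortex level 5.53 (4.04 to 4.25) and the striatum level 5.49 (2.72 to 3.31), as mean log2 CPM. Ifngr2 was at 44.6 CPM there (others 70.2 to 75.8), Il6st at 87 CPM (100 to 105), Stat6, the interleukin-4 responsive STAT, at 14.4 CPM (8.2 to 9.81), Abhd11os at 4.94 CPM (1.05 to 2) and Nat8f1 at 10.5 CPM (6.8 to 7.83).

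Tofacitinib library 1 held the highest Stat2, at 22.9 CPM (others 13.3 to 15.2), and the lowest Zfp937, a zinc finger gene, at 2.49 CPM (3.5 to 3.81). Tofacitinib library 4 held the lowest immediate-early level, 4.63 (others 4.92 to 5.02). Among the sham libraries, library 5 had the lowest astrocyte level, 7.55 (others 7.7 to 7.76), library 2 the highest level of fibroblast and meningeal genes, 4.36 (3.36 to 3.54), and library 3 the highest Tmem199, at 30.8 CPM (24.3 to 25.7).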

How the results depend on the processing

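The count of 0 genes for tofacitinib against sham was also 0 with DESeq2 size factors, without the sex term, in wild-type libraries alone with or without tofacitinib library 3, with 2 surrogate variables, without the 3 libraries low in hippocampal markers, and with each library left out in turn (0 to 0). Without a filter on low counts it was 46 (33 higher, 13 lower), with DESeq2 it was 1, and with no filter and without tofacitinib library 3, an alternative chosen after seeing the data, it was 30. All 46 were tested in the filtered fit as well, where their median standard error was 0.591 against 0.156 without the filter. Of the 46, 15 were also called without library 3, 26 had their highest value in library 3, 9 were striatal markers and 0 were on the JAK-STAT and interferon lists. For the difference from the other genotypes the count of 0 became 39 without a filter, 1 with DESeq2 (Foxb1, adjusted p = 0.0374) and 60 with no filter and without library 3, and was 0 to 0 with each library left out. For the difference between sexes it became 105 without a filter and was 0 to 0 with each library left out; leaving out the 3 low libraries removes only tofacitinib library 3 there. The cause of the calls without a filter was not tested.

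The labels do not say that equal replicate numbers pair the animals, and expression showed little sign of it. Deviations from the group means correlated at 0.2, 0, -0.04, -0.01 and 0.03 for numbers 1 to 5 over 14352 genes. Number 1 was the 1 of the 5 that correlated best with its own number. Such correlations cannot exclude a pairing with small effects. A replicate block gave 0 calls over all libraries (450 genes at an unadjusted edgeR p under 0.05), 0 in wild-type libraries alone (546) and 0 for the difference from the other genotypes (258).

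Of 3133 fold changes of 151 named genes under these alternatives, 26 moved by more than the spread between replicates, 18 of them where tofacitinib library 3 was left out, and 98 in 32 genes changed sign without passing the threshold. Passing values numbered 9, all of them without the filter. Of 820 medians of the 41 lists 13 moved by more than that spread, 9 of them without library 3.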
